A study of Mus musculus with 5 samples.

Results

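Replication-dependent histone genes were described here in Pou4f1 CUT&Tag data from the embryonic mouse retina. The members were the 67 protein_coding genes of GENCODE M21 whose symbols start with Hist1h, Hist2h, Hist3h or Hist4h, out of 21951 protein_coding genes. A row of the deposited region table was assigned to a gene when its midpoint lay within 1 kb of a transcript start of that gene. By this rule 29 of 8038 regions belonged to 37 of the 67 genes, and the other 30 genes had none.

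The core histones H2A, H2B, H3 and H4 form the protein spool around which DNA is wound in a nucleosome, and the linker histone H1 binds where the DNA enters and leaves it. Replication-dependent histone genes are short, mostly lack introns, lie in clusters, and are transcribed mainly in S phase, when new DNA has to be packaged. Their mRNAs end in a stem-loop in place of a poly(A) tail. Many H2A and H2B genes are arranged head to head and share the stretch of DNA between their starts, and many H2B promoters carry an octamer, the sequence bound by the POU-domain protein Oct-1. Pou4f1 (Brn3a) is another POU-domain transcription factor. In the retina it is known as a factor of differentiated retinal ganglion cells (RGCs), which have left the cell cycle, whereas retinal progenitors divide.

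All libraries came from wild-type (WT) mouse retina at E16.5 (E for embryonic day), each from 4 pooled retinas dissociated with papain, so every library holds all the cell types of the retina, and high signal in few cells cannot be told apart from low signal in many. CUT&Tag uses an antibody to bring a transposase to the DNA where a protein sits, and the tagged fragments are sequenced. A rabbit anti-Pou4f1 antibody (n = 2) was compared with rabbit IgG as negative control (n = 2), and the rabbit anti-H3K9AC library (n = 1) was not analysed here. Values are the signal that the authors deposited for each region, an average coverage with a scale of its own in each library. The regions are peaks that the authors called in these Pou4f1 libraries with IgG as negative control. Higher signal with anti-Pou4f1 than with IgG was therefore favoured by the choice of regions. The p-values below are no independent evidence of binding. Neither the depth of the libraries nor the scaling of the signal is stated in the sources used here. The paper calls the replicates independent, but the labels do not say that they came from separate litters, so p-values measure the spread between these libraries. The 2 IgG columns carry no replicate number and are called here, after their headings, the IgG-named and the negative-control library. Of 6 RGC marker genes checked, 5 had a region within 10 kb of a start, among them Pou4f1 itself with 6, and Rbpms had none. The paper names Rbpms among the RGC-enriched genes that Pou4f1 binds. It counted peaks in or near gene bodies, a different rule from distance to a start.

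The DNA between or before histone starts is shown first, because the octamer and the paired layout recur through the results. Sequences are from GRCm38.p6 (mm10), stop short of the starts, and have capitals where the octamer ATTTGCAT or the TATA element TATAAA occurs, TTTATA being the latter read on the other strand. The first 3 lie between the starts of divergent H2A and H2B genes, with the H2B gene to the right.
Hist1h2ae to Hist1h2bg (chr13:23571221-23571395, + strand): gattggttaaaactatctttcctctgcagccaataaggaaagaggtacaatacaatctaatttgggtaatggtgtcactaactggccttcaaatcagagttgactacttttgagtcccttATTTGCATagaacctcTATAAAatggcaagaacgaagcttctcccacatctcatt
Hist1h2ah to Hist1h2bk (chr13:22035644-22035820, + strand): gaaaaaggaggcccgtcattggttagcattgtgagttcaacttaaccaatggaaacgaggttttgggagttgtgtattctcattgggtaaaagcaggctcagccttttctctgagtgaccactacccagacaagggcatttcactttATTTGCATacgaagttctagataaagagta
Hist1h2ag to Hist1h2bj (chr13:22042950-22043197, + strand): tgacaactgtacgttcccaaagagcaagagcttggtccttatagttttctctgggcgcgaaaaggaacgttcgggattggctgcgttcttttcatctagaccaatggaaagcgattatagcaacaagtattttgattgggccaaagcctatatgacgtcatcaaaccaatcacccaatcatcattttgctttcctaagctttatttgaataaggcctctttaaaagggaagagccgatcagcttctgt
In the first of these the octamer began 59 bases and TATAAA 43 bases before the RefSeq start of Hist1h2bg. The last of the 3 held neither, although its region was among the strongest of the clusters. The next 3 are the stretches of 150 bases before H2B starts that held the octamer, from 2 genes with a region and from Hist2h2bb, which had none.
Hist1h2bb (chr13:23746584-23746733, + strand): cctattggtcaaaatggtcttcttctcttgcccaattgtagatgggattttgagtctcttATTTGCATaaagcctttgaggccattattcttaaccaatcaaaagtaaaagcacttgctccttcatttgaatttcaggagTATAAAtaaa
Hist1h2bm (chr13:21721894-21722043, + strand): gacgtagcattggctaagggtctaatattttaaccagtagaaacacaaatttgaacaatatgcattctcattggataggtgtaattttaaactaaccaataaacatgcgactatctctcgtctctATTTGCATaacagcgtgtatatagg
Hist2h2bb (chr3:96269550-96269699, + strand): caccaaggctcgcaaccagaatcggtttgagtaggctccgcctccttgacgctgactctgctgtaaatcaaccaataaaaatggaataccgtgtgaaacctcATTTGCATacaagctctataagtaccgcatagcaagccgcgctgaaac
The last 2 precede an H3 and an H4 gene, which held the TATA element but no octamer.
Hist1h3d (chr13:23575613-23575762, + strand): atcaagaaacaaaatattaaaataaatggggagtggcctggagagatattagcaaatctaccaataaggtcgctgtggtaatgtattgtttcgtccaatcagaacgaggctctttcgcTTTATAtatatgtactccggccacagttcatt
Hist1h4d (chr13:23581418-23581567, + strand): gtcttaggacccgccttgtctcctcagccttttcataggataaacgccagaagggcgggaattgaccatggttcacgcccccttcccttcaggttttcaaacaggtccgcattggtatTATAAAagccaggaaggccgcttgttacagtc
These sequences show the layout, and a match to a motif is a description of letters, not of binding.

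The octamer was concentrated in H2A and H2B promoters. RefSeq promoters, 250 bases before to 50 after the start (GRCm38.p6), matched 62 of the 67 genes. The genes without a match were Hist1h2bc, Hist1h3a, Hist1h3f, Hist2h2be and Hist2h4. ATTTGCAT occurred on either strand in 14 of the 62 promoters (22.6%), beside 1.97% of the promoters of 27025 genes. Of these 14, 7 were among 18 H2A and 7 among 16 H2B promoters, and 0 were among 6 H1, 10 H3 and 12 H4 promoters. All 14 matches lay on the coding strand of the H2B genes or on the opposite strand of the H2A genes. In the H2B promoters the octamer began 25 to 164 bases before the start (median 59), and in the H2A promoters it lay 119 to 200 bases upstream (median 129). In 3 divergent pairs, Hist1h2ae/Hist1h2bg, Hist1h2ah/Hist1h2bk and Hist1h2ba/Hist1h2aa, the same octamer was counted for both genes, so promoters of a pair are not independent. The octamer was found in 9 of 34 promoters of genes with a region (26.5%) and in 5 of 28 without (17.9%), so it occurred in both groups. Regions were assigned here at GENCODE starts, whereas the promoters are at RefSeq starts. Hist1h2be, with an octamer, and Hist1h1d, with none, counted as without a region although each had a region at its RefSeq start.

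Other promoter elements were frequent across the histone types. TATAAA or its complement was present in 35 of 62 promoters (56.5%, beside 15.7% of all promoters). CCAAT, the box bound by NF-Y, or its complement ATTGG was in 85.5%, beside 41.1% of all promoters. Every matched H1, H2A, H2B and H3 promoter had it, but only 3 of 12 H4 promoters did. The E2F motif, searched as TTTGGCGC or TTTCGCGC on either strand, was in 9 promoters (14.5%, beside 0.929%), 5 of H2A and 4 of H2B. These included both genes of the divergent pairs Hist1h2ad/Hist1h2bf, Hist1h2ag/Hist1h2bj, Hist1h2ah/Hist1h2bk and Hist1h2an/Hist1h2bp. Promoter windows of a divergent pair overlap, so a match of any of these elements can be counted for both genes. A fixed AT-rich pattern for the POU motif typical of Pou4 factors was in 0 of 62 histone promoters, beside 271 of all 27025. Over the whole length of the 29 regions this pattern was also found in 0. It was in 2.28% of 4919 other regions at a protein_coding start and 25.2% of 3090 regions at no protein_coding start. Looser forms of the POU motif, such as those with a mismatch, were not counted. A share of 0 is therefore not an absence of possible Pou4f1 sites. The octamer was in 7 of the 29 regions (24.1%), beside 2.50% of the other regions at a coding start. These shares say only that the letters occur or do not occur in these windows.

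Histone genes had a region more often than protein_coding genes as a whole. A region was assigned to 37 of 67 histone genes, 55.2% (95% exact Clopper-Pearson interval 42.6 to 67.4%, which covers counting error only), and to 5470 of 21951 protein_coding genes (24.9%, 24.3 to 25.5%). Neighbouring genes share regions, so genes are not independent of each other. The clusters differed. In Hist1h on chromosome 13, 36 of 54 genes (66.7%, 52.5 to 78.9%) had a region, whereas in Hist2h on chromosome 3 there was none at any gene (0 of 10), which allows a share of up to 30.8%. Hist3h on chromosome 11 had 1 of 2, namely Hist3h2a and not Hist3h2ba, and the lone gene of Hist4h, on chromosome 6, had none. Of the 49 other protein_coding genes inside the Hist1h span, 2 (4.08%, 0.498 to 14.0%) had a region, the zinc-finger genes Zfp184 and Zfp322a. The table lists only called regions, so a gene without a region may still carry signal below the authors' threshold.

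By histone type, the core histones had shares of 55.6 to 66.7% and H1 had 16.7%, a contrast that depended on the distance allowed. A region was assigned to 10 of 18 H2A genes (55.6%), 10 of 18 H2B genes (55.6%), 8 of 12 H3 genes (66.7%) and 8 of 13 H4 genes (61.5%). The intervals of these shares overlapped widely, as the plot of shares shows. Of the 6 H1 genes only Hist1h1c had a region within 1 kb, with an interval of 0.421 to 64.1%. At 3 kb Hist1h1a, Hist1h1d and Hist1h1t gained a region while no core histone gene did, which put H1 at 4 of 6 (66.7%), equal to H3, and at 0.5 kb H1 had 0 of 6. The regions that Hist1h1a and Hist1h1t gained were already assigned to core histone genes, namely Hist1h3a/Hist1h4a and Hist1h4c. The number of histone regions rose only from 29 to 30 at 3 kb. With any base of a region within 1 kb, or with RefSeq starts added, H1 had 2 of 6. Within Hist1h, where the comparison is not affected by cluster, the counts were 9 of 13 for H2A, 10 of 15 for H2B, 8 of 9 for H3 and 8 of 11 for H4. The H3 gene without a region in that cluster was Hist1h3i. The 3 genes known as testis-specific variants, Hist1h1t, Hist1h2aa and Hist1h2ba, had none.

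**Figure D1:**
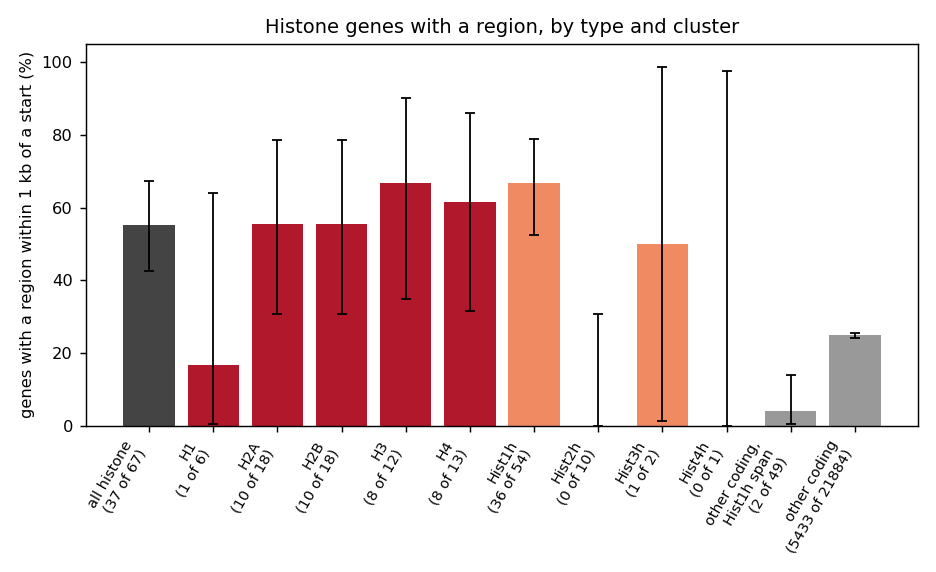
Share of histone genes with a region within 1 kb of a start (vertical axis, percent of genes), by histone type and by cluster, beside other protein_coding genes. Bars are shares, error bars 95% exact binomial intervals, and the labels give the counts. Hist1h stands at 66.7%, Hist2h at 0, and H1 at 16.7% with an interval that overlaps those of the core types.

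The Hist1h genes lay in 3 blocks whose nearest starts were over 200 kb apart. The first, chr13:21715763-21837530, held 18 genes, 7 of them with a region. The second, chr13:22035164-22043676, spanned 8.51 kb and all of its 5 genes had a region. The last, chr13:23531050-23934851, held 31 genes, 24 with a region. Genes without a region were not scattered evenly, as the map shows. In the first block the 10 neighbouring genes from Hist1h1b to Hist1h2br, over 57.6 kb, all lacked a region, and the nearest region was 27.4 to 80.5 kb from their starts. At the far end of the last block the start of Hist1h2aa lay 173 kb from the nearest midpoint.

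**Figure D2:**
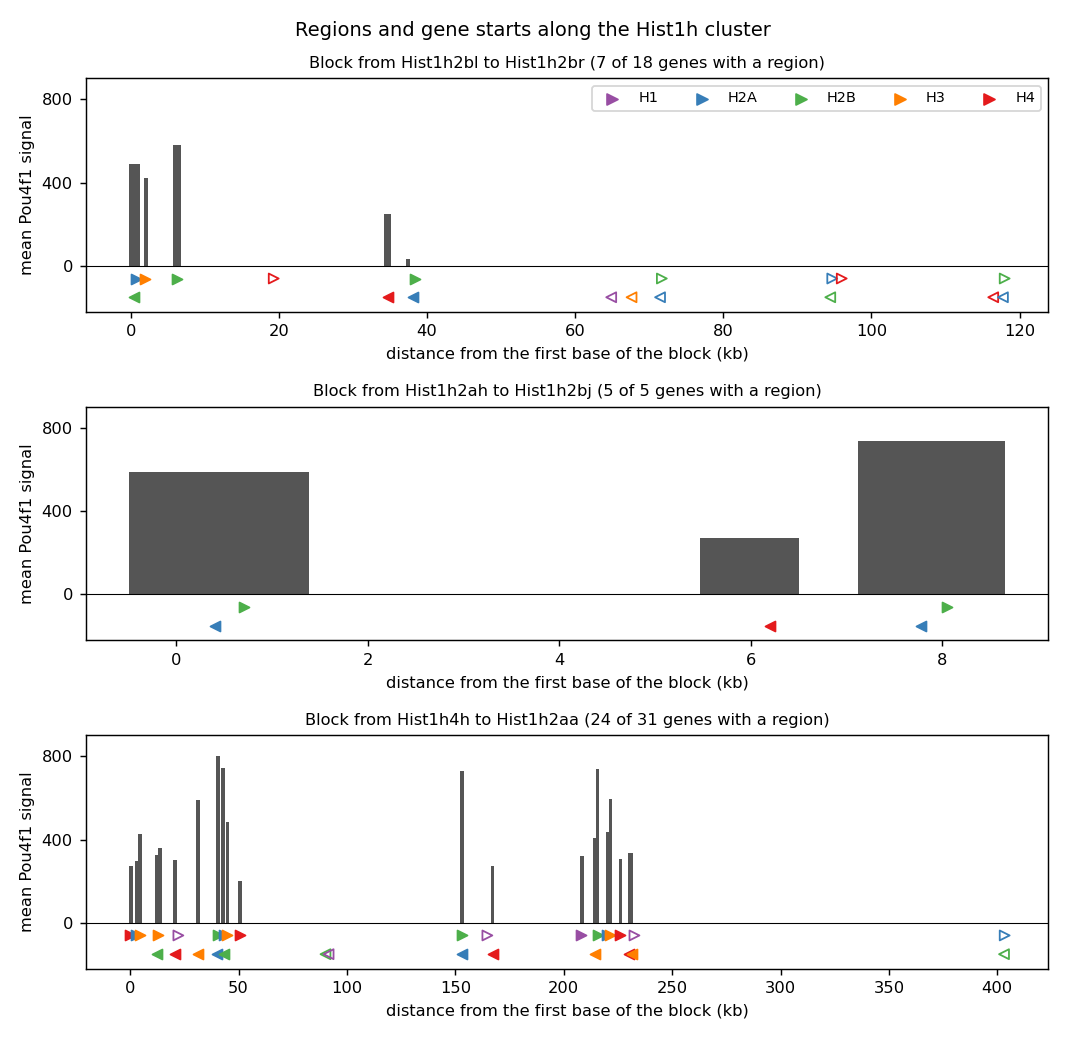
Map of the 3 Hist1h blocks, each drawn from its own first base (horizontal axis, kb). Bars are the 28 Hist1h regions at their width and mean Pou4f1 signal (vertical axis), and arrowheads are gene starts pointing in the direction of transcription, filled where the gene has a region and open where it has none. The 10 open arrowheads at the right of the first block are the genes from Hist1h1b to Hist1h2br.

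Outside Hist1h the other clusters were nearly empty. The starts of the 10 Hist2h genes, which include copies of H2A, H2B, H3 and H4 genes, were 58.5 to 108 kb from the nearest midpoint. Hist4h4 was 3.75 kb from a region at the start of H2afj, a replication-independent H2A gene. The region of Hist3h2a was also within 1 kb of a start of Trim17, a ubiquitin ligase gene, so its signal cannot be given to either gene.

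Annotation changed 2 of the absences. Hist1h1d and Hist1h2be had no region at their GENCODE starts, but each had a region at its RefSeq start. The region at the RefSeq start of Hist1h1d (chr13:23554739-23556577) had signals of 234 (Pou4f1 replicate 1), 282 (replicate 2), 12.9 (IgG-named) and 7.49 (negative-control library) (log2 difference 4.57, SE 0.48, limma adjusted p = 0.00703). That of Hist1h2be (chr13:23585544-23586146) had 426, 518, 34.0 and 23.6 in the same order (log2 difference 4.003, SE 0.44, adjusted p = 0.00780), and it contained the octamer. With RefSeq starts added, 39 of 67 genes (58.2%) had a region, a count chosen after the data were seen. These 2 regions are not among the 29.

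At a distance of 1 kb, both genes of a divergent pair had a region or neither had. There were 13 pairs of histone genes on opposite strands pointing away from each other with starts at most 1 kb apart, 176 to 660 bp in these data. In 8 pairs 1 region was assigned to both genes, and in the other 5 neither gene had a region, so there was no pair in which only 1 gene had a region. Of the 8, 7 were H2A/H2B pairs and 1 was Hist1h2bh/Hist1h3f. The pairs without a region were Hist1h2an/Hist1h2bp, Hist1h2ap/Hist1h2br, Hist1h2bq/Hist1h2ao, the testis pair Hist1h2ba/Hist1h2aa, and Hist2h2ac/Hist2h2be. With starts this close, a region within 1 kb of 1 start is nearly always within 1 kb of the other, so the rule itself favours agreement within a pair. At a distance of 0.5 kb, 6 pairs shared a region, and Hist1h3f had no region while Hist1h2bh still had its region.

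The strongest histone region lay over the promoter shared by Hist1h2ae and Hist1h2bg, whose sequence is given above. At chr13:23570729-23572172 the signal was 670 and 935 with anti-Pou4f1 (replicates 1 and 2) and 50.2 and 19.7 with IgG (IgG-named, then negative-control library), the order kept below. Both Pou4f1 libraries were far above both IgG libraries, with a log2 difference of 4.61 (SE 0.66, adjusted p = 0.0144), and the region ranked 55 of 8038 by mean Pou4f1 signal. Its neighbour Hist1h2ad/Hist1h2bf (chr13:23573133-23574978), had 579 and 910 against 12.8 and 68.4 (log2 difference 4.55, SE 1.02, adjusted p = 0.0354). Its negative control value was the second highest among the histone regions.

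The other shared H2A/H2B promoters of Hist1h were of similar strength, with 2 weaker ones. Hist1h2ag/Hist1h2bj (chr13:22042283-22043817), the promoter without an octamer, had 653 and 823 against 7.95 and 35.6 (log2 difference 5.34, SE 0.89, adjusted p = 0.0198). Hist1h2ac/Hist1h2bc (chr13:23683497-23684900) had 645 and 815 against 8.69 and 29.8 (log2 difference 5.39, SE 0.77, adjusted p = 0.0140). Hist1h2ah/Hist1h2bk (chr13:22034675-22036556) had 460 and 716 against 25.9 and 37.1 (log2 difference 4.17, SE 0.49, adjusted p = 0.00919). In all of them every Pou4f1 value exceeded every IgG value, as in 96.5% of all 8038 regions. The weaker ones were in the first block. Hist1h2ai/Hist1h2bl (chr13:21715566-21716965) had 424 and 551 against 17.4 and 50.8 (log2 difference 3.97, SE 0.71, adjusted p = 0.0229).

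Hist1h2ak/Hist1h2bn was the exception among the 29. Its region (chr13:21753119-21753300) was only 182 bp long, lay 617.5 bp downstream of the Hist1h2ak start, beyond the end of that gene, and covered no base of a histone coding sequence. The signal was 27.7 and 43.3 with anti-Pou4f1, against 0 in the IgG-named and 74.2 in the negative-control library. The groups overlapped here, and the difference did not pass the test (log2 difference 2.04, SE 2.50, adjusted p = 0.475). At its mean Pou4f1 signal of 35.5, only 0.460% of all regions were lower. Counting this pair as sharing a region therefore rests on a weak row.

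Hist1h2bh and Hist1h3f, a divergent H2B and H3 gene with starts 660 bp apart, shared the region chr13:23542984-23543658. It had 387 and 265 with anti-Pou4f1, against 0 in both IgG libraries (log2 difference 8.33, SE 0.43, adjusted p = 0.00222). Against a value of 0 the size of the difference is set by the pseudocount of 1, so it is not an estimate of a fold. Hist1h3f also had a second region of its own.

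Regions at H2B genes without a coding H2A partner had mean Pou4f1 levels inside the range of the shared ones. Hist1h2bb (chr13:23745923-23747455) had 719 and 759 against 23.6 and 18.6 (log2 difference 5.07, SE 0.40, adjusted p = 0.00363), the highest value of replicate 1 among the histone regions. Hist1h2bm (chr13:21721440-21722580) had 431 and 730 against 10.4 and 0 (log2 difference 7.38, SE 1.46, adjusted p = 0.0280). Both regions were also within 1 kb of starts outside the coding set. These were Gm11336 and Gm44314 for Hist1h2bb, and Gm44357 and Hist1h2aj for Hist1h2bm, and Hist1h2aj lies head to head with Hist1h2bm. Hist1h2af, the lone single-gene H2A region of Hist1h, had 259 and 337 against 0 in both IgG libraries.

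H3 genes followed. Hist1h3b (chr13:23752201-23752841) had 479 and 708 against 0 in both IgG libraries (adjusted p = 0.00222). Hist1h3e (chr13:23561608-23562804) had 465 and 718 against 40.1 and 0, and the difference between those IgG values left it outside the threshold (log2 difference 6.50, SE 2.16, adjusted p = 0.0678). Hist1h3d (chr13:23575635-23576316) had 372 and 601 against 17.9 and 18.2 (log2 difference 4.64, SE 0.46, adjusted p = 0.00634). In each of these 3 regions every Pou4f1 value exceeded every IgG value, as in 96.5% of all 8038 regions.

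H4 genes made up most of the weaker Hist1h regions. Hist1h4d (chr13:23581158-23582248) was the lowest of them, with 168 and 232 against 0 and 13.04 (log2 difference 5.73, SE 1.56, adjusted p = 0.0487). Hist1h4k (chr13:21749919-21750903) had 135 and 366 against 0 and 14.4 (log2 difference 5.83, SE 1.70, adjusted p = 0.0542), the widest gap between replicates of the set as a ratio (2.71). Hist1h4i (chr13:22040634-22041672) had 231 and 309 against 11.4 and 0 (log2 difference 6.25, SE 1.49, adjusted p = 0.0389). No single-gene H4 region reached the mean of 320 at Hist1h1c, the linker histone gene. Hist1h4h (chr13:23530637-23532202) had 206 and 341 against 0 and 4.54 (log2 difference 6.82, SE 1.08, adjusted p = 0.0177). Hist1h4c (chr13:23697758-23698660) had 268 and 281 against 0 and 15.3 (log2 difference 6.09, SE 1.63, adjusted p = 0.0473). In all 5 of these named H4 regions every Pou4f1 value exceeded every IgG value, as in 96.5% of all 8038 regions.

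Hist3h2a was the weakest region apart from Hist1h2ak/Hist1h2bn. At chr11:58953800-58955399 it had 123 and 60.2 against 7.62 and 24.4 (log2 difference 2.56, SE 0.82, adjusted p = 0.0640). The groups did not overlap, but the difference did not pass the threshold.

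**Figure D3:**
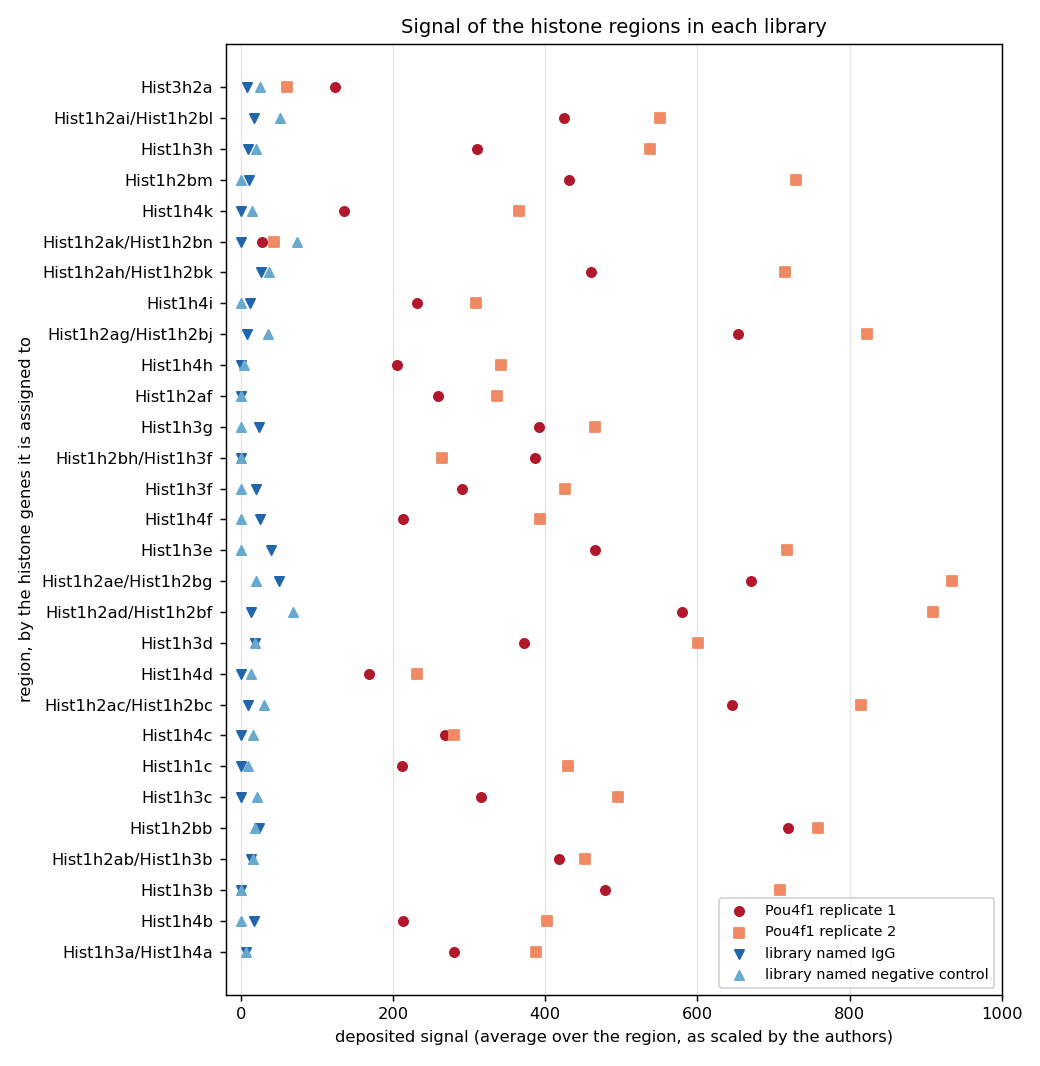
Deposited signal (horizontal axis, average over the region on each library's own scale) of the 29 histone regions in the 4 libraries, in genome order from top to bottom. Red and orange points are Pou4f1 replicates 1 and 2, dark and light blue points the IgG-named and the negative-control library. The Pou4f1 points lie to the right of both IgG points in 28 regions, and Hist1h2ak/Hist1h2bn is the exception. Over all 8038 regions this order held in 96.5%.

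Ordered by class, the levels of single-gene H3 and H4 regions were separate. The 7 H2A/H2B regions had a median mean Pou4f1 signal of 730 (35.5 to 803), the 7 single-gene H3 regions 429 (358 to 594) and the 7 single-gene H4 regions 273 (200 to 308). H3 and H4 did not overlap in either replicate, with 291 to 479 against 135 to 268 in replicate 1 and 426 to 718 against 232 to 402 in replicate 2. The regions are members of 1 set in the same libraries, not replicates, and no test was made. H3 regions were shorter, with a median length of 690 bp against 985 bp. When the signal was multiplied by the length, the H3 and H4 regions overlapped, at 267 to 708 against 218 to 428 in units of 1000. H3 regions were also the more repetitive class, with 22.6 to 56.8% of their 75-base words found elsewhere in the genome against 3.83 to 24.5% in H4. The part of length and of repeated sequence in this difference was not tested.

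Regions with the octamer had a higher median signal than those without, and each region with it was assigned to an H2A or H2B gene. The median mean Pou4f1 signal was 588 in the 7 regions with ATTTGCAT and 330 in the 22 without. Of those 7, 3 were H2A/H2B regions, 2 H2B, 1 H2A (Hist3h2a) and 1 Hist1h2ab/Hist1h3b. The spread among octamer regions ran from 91.7 to 803, and H2A/H2B regions without an exact octamer reached 745. That region was Hist1h2ad/Hist1h2bf, and both of its promoters held an octamer with 1 mismatch, as did 31 of 62 histone promoters. Octamer and histone type could not be told apart in so few regions.

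Single-gene H3 and H4 regions extended into the gene bodies. In 16 of the 19 regions that belonged to 1 gene only and to no divergent pair, the midpoint was downstream of the start, by a median of 158.5 bp over all 19. This held for 7 of 7 H3 and 7 of 7 H4 regions and for the 1 H1 region, but for 1 of 2 H2A and 0 of 2 H2B regions. The share among other coding-start regions was not counted. Histone coding sequence made up 34.1 to 64.8% of each single-gene H3 region and 19.7 to 43.5% of each single-gene H4 region.

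Across all histone regions, Pou4f1 signal exceeded IgG in nearly every row, as it did in the table at large. The regions were called against IgG in these same libraries, which favours this order in every row. In limma, 20 of the 29 regions were higher in Pou4f1 at an adjusted p under 0.05, where 64.8% of all 8038 regions were, and 0 were lower, where 0.224% were. At an unadjusted p under 0.05, 26 were higher, where 76% of all regions were, and 0 had a negative difference, where 2.03% did. The groups did not overlap in 28 of the 29, with Pou4f1 higher, and the share in the whole table was 96.5%. The counts at the adjusted p and of groups that did not overlap are near the background, and none of these counts was tested against it. The median log2 difference was 5.83, beside 5.22 over all regions. Whether a region passed depended on the IgG values, since 11 of 12 regions with both IgG libraries above 0 passed (74.1% over all such regions), 3 of 3 with both at 0 (99.7%) and 6 of 14 with 1 at 0 (39.4%). The share was lowest with 1 at 0 in the whole table too. Leaving out Pou4f1 replicate 1 or 2 cut the 20 calls to 7 in either case (29.4 and 30.9% of all regions), and leaving out the IgG-named or the negative-control library raised them to 28 and 29 (94.4 and 95.9% of all regions), the lone library of an arm being assumed to vary like the other arm.

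The level of Pou4f1 signal was high relative to other promoter regions. The median over the 29 was 316 in replicate 1 and 452 in replicate 2, beside 182 and 129 in the 4919 other regions at a protein_coding start. IgG medians were 9.68 and 14.4 beside 5.49 and 10.3. By mean Pou4f1 signal 27 of the 29 were above the median of all regions. In the highest 9.99% of all regions were 15 of the 29 (51.7%), beside 5.53% of the other regions at a coding start. Region length was alike, with medians of 1039 and 1023 bp. GC content was lower at histone regions, with a median of 53.5% against 63.0%. Among 353 other coding-start regions with a GC content inside the interquartile range of the histone regions, the median mean signal was 159, and it was 146 among 17 with a similar share of repeated words.

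The order of the Pou4f1 replicates at histone regions was the reverse of that at other promoters. Signal was higher in Pou4f1 replicate 2 than in replicate 1 in 27 of the 29 (93.1%), but in 755 of the 4919 other regions at a coding start (15.3%). It was also higher in replicate 2 in 1883 of 3090 regions at no coding start (60.9%), and in 33.2% of all 8038 regions. This order was thus not particular to histone regions. Replicate 2 divided by replicate 1 had a median of 1.46 at histone regions, 0.70 at other coding starts and 1.14 at regions away from coding starts. Because each library has its own scale, only the difference between these groups of regions can be read. The exceptions were Hist3h2a, at a ratio of 0.49, and Hist1h2bh/Hist1h3f, at 0.69. Hist3h2a was also the only one of the 29 assigned to a protein_coding gene that is no histone gene. Among the other coding-start regions of similar GC content, replicate 2 was higher in 95 of 353 (26.9%), and among those with a similar share of repeated words in 2 of 17 (11.8%). No test was made, since all groups of regions were measured in the same 2 libraries.

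**Figure D4:**
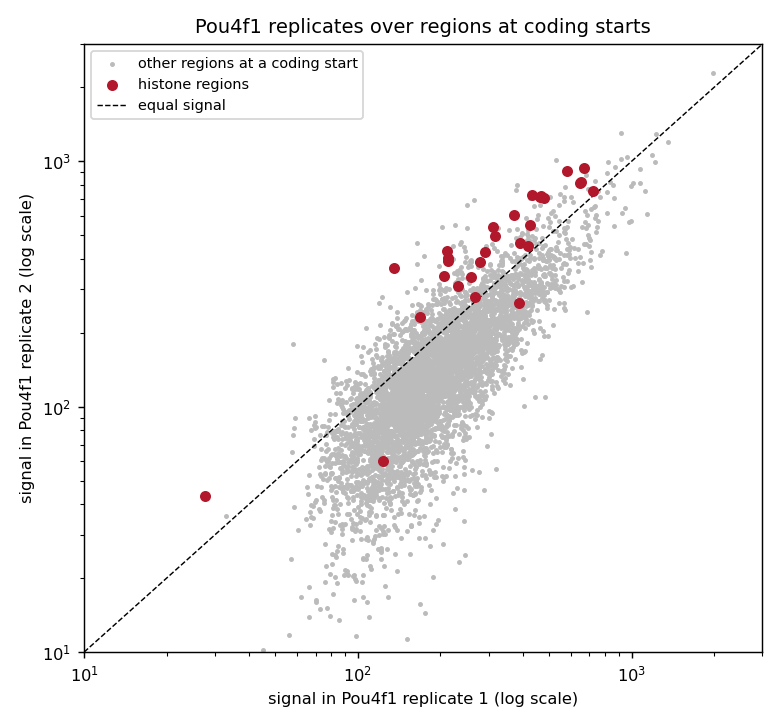
Signal in Pou4f1 replicate 1 (horizontal axis) against replicate 2 (vertical axis), both on log scales, for regions at protein_coding starts. Grey points are the other regions, red points the 29 histone regions, and the dashed line marks equal values. Of the grey points, 3 at 0 in replicate 2 could not be drawn and 5 fall outside the axes. The red points lie above the line in 27 regions and the grey points below it in most.

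Histone genes are near-identical copies, which bears on where reads can be placed. Of the 75-base words in the 29 regions, 75 being the read length, 25.7% occurred elsewhere in the genome, beside 3.48% in all regions. The median histone region had 26.9%, and the median of the other coding-start regions was 0. Within 500 bp of histone starts the share was 0 to 51.0% (median 23.9%) at the 37 genes with a region and 0 to 100% (median 14.5%) at the 30 without. More than 60% of words were repeated at 10 genes, and 0 of the 10 had a region. These were Hist1h2bq, Hist1h2ao, Hist1h2ap and Hist1h2br at 100%, Hist1h4m at 91.5%, Hist1h4n, Hist2h3c1 and Hist2h3c2 at 91.9%, Hist2h2aa2 at 66.8% and Hist2h2aa1 at 60.5%. Among all protein_coding genes a region was assigned to 26 of 972 above that limit (2.67%) and to 25.9% of the others. The limit of 60% was chosen after the values were seen.

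Repeated sequence accompanied only some of the absences. Of the 10 genes in the run from Hist1h1b to Hist1h2br, 6 were above 60% and 4 were not, and of the 10 Hist2h genes 4 were above and 6 were not. Hist2h2bb and Hist2h4 had 0% repeated words and no region. H1 genes had 0 to 11.3%. The 5 H1 genes without a region within 1 kb were thus not repetitive, but 3 of them had a region within 3 kb, among them Hist1h1d with its region at the RefSeq start. For Hist1h1a and Hist1h1t the region within 3 kb was already assigned to neighbouring core histone genes. How reads that map to several places were treated is not stated in the sources used here, and the part of repeated sequence in the missing regions was not tested. Where copies are identical, signal cannot be assigned to a single gene.

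**Figure D5:**
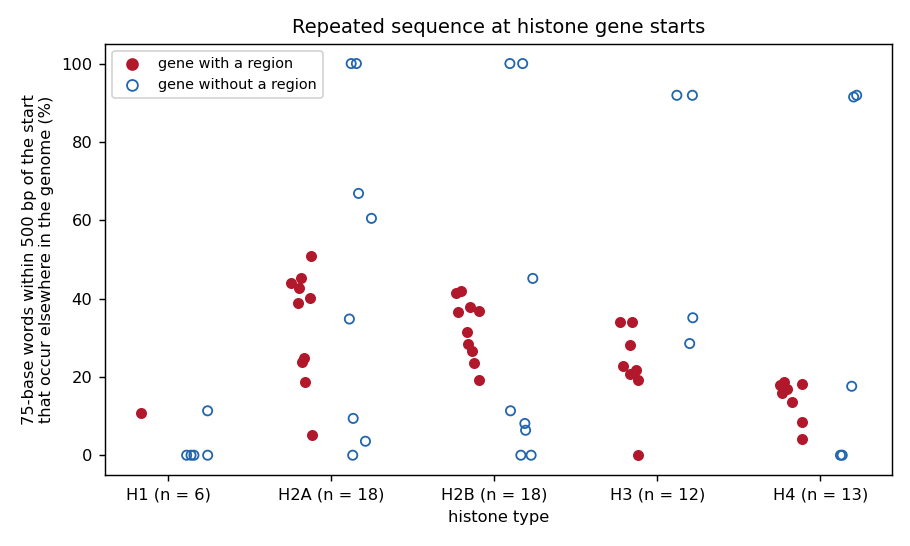
Share of 75-base words within 500 bp of the start that occur elsewhere in the genome (vertical axis, percent), for the 67 genes by histone type. Filled red points are genes with a region and open blue points genes without, spread sideways for legibility. Every gene above 60% is open, but open points also lie at 0, including 4 of the H1 genes.

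Genes that work with the replication-dependent histones were looked at for comparison. Of 11 replication-independent histone genes, which are expressed outside S phase, 4 had a region (36.4%, beside 24.9% of all protein_coding genes). All 4 regions were higher in Pou4f1, beside 64.8% of all regions. Replicate 2 was higher in 0 of them, near the 15.3% at other coding starts. H2afz, the H2A.Z gene, had 384 and 228 against 0 in both IgG libraries, and H3f3b, which encodes H3.3, had 198 and 166 against 0 in both. Here the order of the replicates was the reverse of that at the clusters.

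Of 18 genes for histone mRNA synthesis and processing, 12 had a region (66.7%, beside 24.9% of all protein_coding genes). Of the 12 regions 6 were higher, beside 64.8% of all regions, 0 were lower and 6 did not pass the threshold. Npat, the coactivator of histone transcription downstream of cyclin E and Cdk2, had 294 and 190 against 5.53 and 1.19 (adjusted p = 0.0110). Pou2f1, which encodes the octamer-binding protein Oct-1, had 286 and 284 against 7.28 and 0 (adjusted p = 0.0257). Slbp, whose product binds the stem-loop of histone mRNA, had 244 and 230 against 0 and 27.3 (adjusted p = 0.0753). In 2 of the 12, at the cleavage factor genes Cpsf3 and Cstf2t, replicate 2 was the higher. Of 10 histone chaperone genes 4 had a region (40%), Asf1b, Chaf1b, Daxx and Hira, of which Hira passed the threshold and 3 did not, and replicate 2 was higher in 0. The median mean Pou4f1 signal was 244, 191 and 175 in the 3 lists, beside 405 in the histone clusters.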

How the data were processed

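Retinas of wild-type E16.5 embryos were used for CUT&Tag with anti-Pou4f1 (n = 2) and rabbit IgG (n = 2). The authors trimmed and masked 75-base paired-end reads and mapped them to mm10 with Bowtie2 2.4.5. They called regions with SEACR in relaxed mode, with IgG as negative control, and deposited a signal value per region and library. The signal times region length was a whole multiple of a step of its own in each library for 100% of values in 3 libraries and 99.99% in Pou4f1 replicate 1 (tolerance 0.05). These are not read counts, depth is unknown, and no count test was used. The negative-control column was counted with IgG, since no other negative control is named in the paper.

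Pou4f1 was compared with IgG by limma 3.58.1 (R 4.3.3) on log2(signal + 1) over all 8038 regions, two-sided, with no covariates or rescaling, Benjamini-Hochberg adjustment and a threshold of 0.05. Differences of regions at 0 in IgG depend on the pseudocount. With 2 against 2 an exact permutation test could not pass, so no such test was made. Genes were from GENCODE M21, sequence from GRCm38.p6 and promoters from RefSeq, handled in Python 3.11.15 (scipy 1.17.1, pandas 2.3.3, numpy 2.4.6, matplotlib 3.10.9). A 75-base word counted as repeated when it occurred more than once in the genome on either strand. Divergent starts were at most 1 kb apart. The steps were checked on simulated data.

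Members and lists were chosen with earlier results of these data known. Regions named with all values were those outside Hist1h, those shared by divergent pairs, the 5 strongest and 5 weakest other Hist1h regions by mean Pou4f1 signal, and any with an IgG value at or above a Pou4f1 value. Other genes were named after their values were seen, namely those at the 2 RefSeq starts and Hist1h2af. Alternatives covered the scaling of IgG, pseudocounts, filters, each library left out, distances, starts, motif and word settings. The H3K9AC library was not analysed here.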

Additional observations from a re-analysis of the deposited data

How the results depend on the processing

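The number of calls depended on the signal scale, the pseudocount and each single library. The 20 histone regions past the threshold became 12 with IgG multiplied by 2, 7 with IgG multiplied by 4 and 3 with column totals as library sizes, and the calls over all regions (5205) became 2949, 2152 and 1821. As shares these were 41.4, 24.1 and 10.3% of the histone regions, beside 36.7, 26.8 and 22.7% of all regions. The histone share was thus below that of all regions with IgG multiplied by 4 and with column totals. With a pseudocount of 0.1 there were 13 histone calls (44.8%, and 43.4% of all regions), and with 10 there were 28 (96.6 and 92.6%). Leaving out each library in turn gave 7 to 29 histone calls and 2360 to 7710 over all regions. The median log2 difference of 5.83 was 3.41 with column totals, 7.52 with a pseudocount of 0.1 and 4.25 with 10, where the median of all regions was 2.74, 6.85 and 3.44. With column totals the difference turned to -1.37 at Hist3h2a, -0.026 at Hist1h2ai/Hist1h2bl and -0.28 at Hist1h2ak/Hist1h2bn. Hist1h2ak/Hist1h2bn also turned, to -1.08, without the IgG-named library, and was 5.16 without the negative-control library. Allowing 1 mismatch, 50% of histone promoters and 20.8% of all held the octamer, and with 50-base words 31.02% of the words in histone regions were repeated. The share of histone genes with a region was 46.3% at 0.5 kb, 59.7% at 3 kb and 56.7% counting any base of a region. Of 13 divergent pairs, 8 shared a region at 1 kb and 6 at 0.5 kb. With starts at most 0.5 kb apart 7 of 12 pairs shared a region, and with starts at most 2 kb apart 8 of 21 did. A trend of spread on level, a limit of 2-fold and the removal of regions with a summed signal under 50 left 20 to 23 histone calls. The cause of these changes was not tested beyond the construction of each setting. No paired analysis was possible because the IgG columns carry no replicate number.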

Other observations

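Of the 32 regions inside the Hist1h span, 4 were not assigned to a histone gene. At Zfp184 (chr13:21944754-21945833) the signal was 110 and 77.6 with anti-Pou4f1 and 0.918 and 0.659 with IgG, and at Zfp322a (chr13:23368433-23369550) it was 122 and 74.7 against 10.9 and 0. In both of these zinc-finger gene regions replicate 1 was the higher, as at most other promoters. The other 2 were those at the RefSeq starts of Hist1h1d and Hist1h2be, where replicate 2 was the higher, at 282 against 234 and at 518 against 426.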
